A study of Mus musculus with 2 samples.

Results

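The cells described here are droplet barcodes from the mouse aorta that carried the cartilage collagen gene Col2a1 at a high level together with other cartilage genes, and they are called chondrocyte-like barcodes. A barcode was a member when it held at least 3000 unique molecular identifiers (UMIs, each standing for 1 captured transcript), at least 1000 genes and at most 20% mitochondrial UMIs. It also needed Col2a1 at 50 or more of every 10000 UMIs, at least 3 of the 5 partner genes Acan, Hapln1, Col11a1, Col9a1 and Col9a2, and no more than 1 UMI of C1qa and Pecam1 together. Of 12848 barcodes that passed the depth, gene and mitochondrial limits, 361 were members. Members were thus chosen by their own counts of these genes, so the levels of the rule's genes, and of every other gene set against the remaining barcodes, are a description and carry no test.

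The series profiled aortic cells of ApoE-/- mice aged 20 weeks, which lack apolipoprotein E and develop atherosclerotic plaques, in 2 samples. One is labelled MSC_ITGB3 and the other HFD. The design text describes HFD-fed animals given MSC_ITGB3 or not given it, with a census of aortic cell types as the purpose. How many animals stand behind a sample is not stated in those labels. The counts came as 1 matrix with 2 barcode suffixes, called library 2 and library 1. No label says which suffix belongs to which sample, so the libraries are given next to each other and no comparison of MSC_ITGB3 with HFD was made. There is 1 library per suffix and no replicate, so every interval in brackets is an exact 95% interval that covers counting error only, and no p-value was computed.

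Chondrocytes build cartilage. They secrete a meshwork of type II, IX and XI collagen filled with the proteoglycan aggrecan (Acan), which the link protein Hapln1 fastens to hyaluronan, and the transcription factor Sox9 with its partners Sox5 and Sox6 drives these genes. In growing bone, chondrocytes that enlarge before ossification switch on Col10a1, Alpl, Ibsp and Spp1, genes of a matrix that takes up mineral. Cartilage-like cells are also known from advanced atherosclerotic plaques of mice and humans, and smooth muscle cells that change their state are one described source of them.

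The upstream sequences of 3 genes are shown because the results turn on them: Ibsp, the gene by which members were split, Acan, the aggrecan gene of the rule, and Col10a1, the gene of the enlarged chondrocyte that differed between the libraries. Each is the 250 bases before RefSeq's start of the gene on build GRCm38.p6. Ibsp lies at chr5:104299037-104299286 on the plus strand, Acan at chr7:79052976-79053225 on the plus strand and Col10a1 at chr10:34389731-34389980 on the plus strand. Capitals mark matches, on either strand, to 4 short motifs, none of which overlaps another in these windows: the SOX core ACAAT, the site of RUNX factors ACCACA, the box known as CCAAT from many promoters, and the letters of the TATA box, searched here as TATAA.
Ibsp: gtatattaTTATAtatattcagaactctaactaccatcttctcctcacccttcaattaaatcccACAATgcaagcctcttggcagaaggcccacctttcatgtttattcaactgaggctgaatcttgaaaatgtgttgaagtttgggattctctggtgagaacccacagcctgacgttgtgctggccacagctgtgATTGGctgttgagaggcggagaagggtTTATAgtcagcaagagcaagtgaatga
Acan: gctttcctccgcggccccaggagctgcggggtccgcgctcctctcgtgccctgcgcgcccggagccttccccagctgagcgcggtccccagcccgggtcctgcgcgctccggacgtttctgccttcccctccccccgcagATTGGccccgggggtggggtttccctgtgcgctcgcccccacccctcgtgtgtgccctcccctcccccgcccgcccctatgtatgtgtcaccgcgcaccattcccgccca
Col10a1: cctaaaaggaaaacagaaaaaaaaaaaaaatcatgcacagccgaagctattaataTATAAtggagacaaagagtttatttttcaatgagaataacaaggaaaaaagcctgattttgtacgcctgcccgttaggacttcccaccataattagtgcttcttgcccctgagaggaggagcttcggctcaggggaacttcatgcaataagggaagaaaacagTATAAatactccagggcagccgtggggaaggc

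The Ibsp window held the SOX core with its first base 186 bases before the start. On the other strand it held the CCAAT box from 54 bases and the TATA letters from 242 and from 27 bases before the start. The Acan window held only the CCAAT box, on the other strand, from 110 bases. The Col10a1 window held the TATA letters from 195 and from 32 bases. Among all 32851 promoter windows of this length in the table, 27.66% held the SOX letters, 14.05% the RUNX letters, 33.85% the CCAAT box and 22.78% the TATA letters, so each of these matches is common. Of the 20 genes outside the rule with the largest ratio in members, 13 had a window, and the motifs were found in 3, 2, 3 and 4 of them in that order. A match is a string of letters and no evidence that a factor binds there.

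Library 2 held 319 members among 6533 passing barcodes, a share of 4.88% (4.37 to 5.43), and library 1 held 42 among 6315, a share of 0.665% (0.480 to 0.898). The Col2a1 limit kept 470 barcodes in library 2 and 57 in library 1, the partner genes then removed 99 and 10, and the limit on C1qa and Pecam1 removed 52 and 5. The members nearest to the Col2a1 limit stood at 50, 50.3 and 51.6 per 10000 UMIs in library 2 and at 55.4, 57.9 and 70.8 in library 1, and the nearest barcodes outside stood at 49.5, 49.5 and 49.3 in library 2 and at 49.0, 46.8 and 41.7 in library 1. No member shared its barcode sequence with a member of the other library, while 17 barcode sequences were shared among all passing barcodes.

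Many members were shallow and a few were deep. The lowest, median and highest depth was 3014, 4490 and 84368 UMIs in library 2 and 3197, 7418 and 88807 UMIs in library 1. Barcodes over 20000 UMIs numbered 50 in library 2 and 16 in library 1 and held 60.1% and 79.8% of the members' UMIs, so summed counts speak mostly for these. Members had a median of 2007 and 2806 genes and of 3.84% and 2.79% mitochondrial UMIs in library 2 and library 1, and the other passing barcodes had 2481 and 2947 genes and 3.02% and 2.48%. The whole matrix held 124266676 UMIs in library 2 and 110257209 in library 1.

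**Figure D1:**
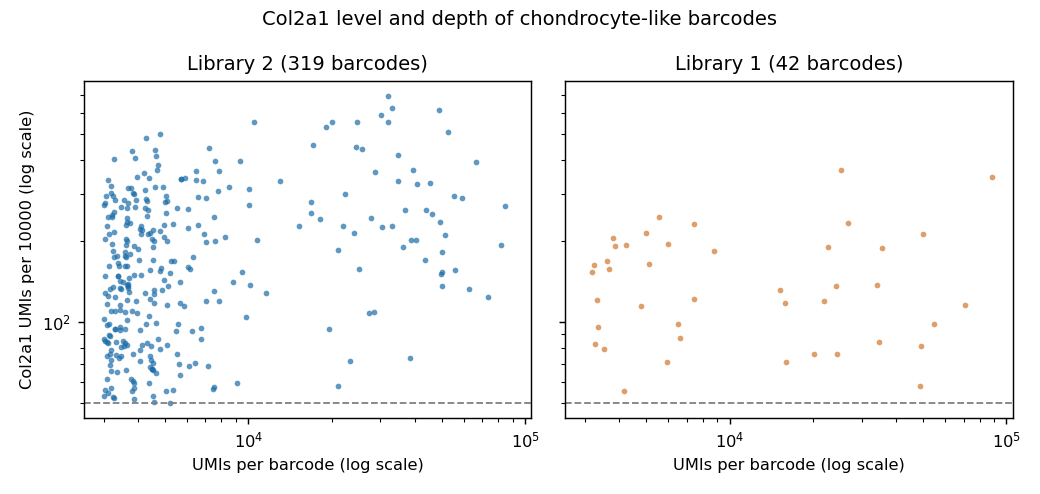
Col2a1 UMIs per 10000 (log scale) against UMIs per barcode (log scale) for each chondrocyte-like barcode, library 2 on the left and library 1 on the right; the dashed line is the limit of 50. The 319 members of library 2 span 50 to 691 per 10000 and the 42 of library 1 span 55.4 to 369, and most points of library 2 lie at the shallow end.

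Of the 42 members of library 1, 19 had nearly the same counts as each other. The likeness of a pair was measured at 3000 UMIs each as the mean squared difference over genes relative to sampling noise, a value of about 1 where a pair differs by sampling alone. Groups were formed on this same value, joining barcodes up to an average of 1.5. Low values within a group and higher ones to other members therefore follow from the grouping and are no test of it. Within the 19 barcodes the median over pairs was 1.28, while it was 3.69 between them and the other 23 members of library 1. Over all pairs it was 3.42 in library 1 and 3.37 in library 2. These 19 held 3197 to 7419 UMIs and the other 23 held 3532 to 88807. In library 2 the largest such group had 8 of 319 members, with a median of 1.30 over its pairs. Like barcodes were common there too: 207 members lay in 67 groups of 2 or more, and 112 members stood alone. The value of a member with its nearest other member had a median of 1.25 in library 2 and 1.33 in library 1. Whether like barcodes share a source was not tested, and intervals over members count each barcode as a separate cell. The grouping was made from the counts after they were seen, so the genes that set the 19 apart are a description. Results that rest on library 1 are given with and without these barcodes where that changes them.

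Col2a1 itself, the fibrillar collagen that gives cartilage its tensile frame (chromosome 15, 97975602 to 98004695, minus strand, GRCm38), took 24470 CPM (UMIs of a gene among all UMIs of the summed barcodes, on a scale 100 times that of UMIs per 10000) in members of library 2 and 16070 CPM in members of library 1. The other passing barcodes had 588.7 and 77.89 CPM, and 59.7% of all passing barcodes of library 2 and 91.8% of library 1 had no Col2a1 UMI. The median member carried 165.1 Col2a1 UMIs per 10000 in library 2 and 133.5 in library 1, with overlapping ranges. Among the partner genes, Acan reached 2857 and 2130 CPM in members of library 2 and library 1, Hapln1 1012 and 552.3 CPM, Col11a1 1299 and 355.1 CPM, Col9a1 603.2 and 342.5 CPM, and Col9a2 653.0 and 147.9 CPM. After each barcode was thinned to 3000 UMIs, Acan was found in 96.9% and 97.6% of members, against 18.7% and 8.83% of other barcodes, and Hapln1 in 81.2% and 71.4% of members, against 3.57% and 0.574% of other barcodes. All 5 partner genes were found in 169 members of library 2 (53.0%) and in 12 of library 1 (28.6%). Of the marker genes given for these cells only Ibsp stands outside the rule, and it was absent from many members.

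Outside the rule, genes known from cartilage led the order of ratios, among others that are not usually listed with it. A gene was compared when its level reached 50 CPM on the higher side in both libraries and was called when members and other barcodes were 2-fold or more apart the same way in both. Of 3612 genes compared, 253 (7%) were called higher and 403 (11.2%) lower in members. Cnmd, which encodes chondromodulin and keeps cartilage free of vessels, had 122.0 and 232.6 CPM in members of library 2 and library 1, against 2.33 and 1.56 CPM in other barcodes. Its ratio of 52.3-fold in library 2 and 149.5-fold in library 1 was the largest by the smaller of both values. Ibsp, which encodes bone sialoprotein, a mineral-binding protein of bone and mineralising cartilage, came next at 39.7-fold and 65.0-fold. Scrg1, a secreted protein of chondrocytes, was at 33.1-fold and 53.5-fold.

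Other collagen and matrix genes were among the 20 leading genes. Col9a3 and Col11a2, chains of type IX and XI collagen, stood at 25.6-fold and 24.3-fold in library 2 and at 68.5-fold and 42.1-fold in library 1. Col27a1, a fibrillar collagen of cartilage, stood at 16.3-fold and 14.4-fold. Chad, the matrix protein chondroadherin, had 21.4-fold and 44.6-fold, Snorc, a proteoglycan of cartilage, 20.7-fold and 70.1-fold, and Mia, a secreted protein of cartilage, 15.7-fold and 22.0-fold. Genes not usually listed with cartilage stood among them. The keratin gene Krt16 was 23.1-fold and 94.4-fold higher, at 70.07 CPM in members of library 2 and 180.7 CPM in members of library 1, and the protease inhibitor gene Spink5 14.5-fold and 52.5-fold higher. Pdzrn4 was 22.6-fold and 42.4-fold higher, and the remaining 8 of the 20 leading genes, Rab11fip4, Meltf, Lbhd2, Fam180a, Eps8l2, Sdk2, 9330188P03Rik and Kif21a, were 12.9-fold to 20.4-fold higher in library 2 and 12.8-fold to 55.5-fold in library 1. In library 1 a single barcode gave 67.5% of the members' Snorc UMIs and 38.5% of their Krt16 UMIs, so those values speak for few cells. Without barcodes over 20000 UMIs, 47 of 74 genes named for this comparison kept their call. Cnmd (13.9), Scrg1 (16.7) and Ibsp (7.28) were among them by the smaller ratio of the libraries, as were Sox9, Sox5 and Sox6, whereas the 27 that lost it included Ogn, Chil1, Slc26a2, Ugdh, Epas1, Gli3, Sfrp1, Igfbp5 and Adamts2.

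**Figure D2:**
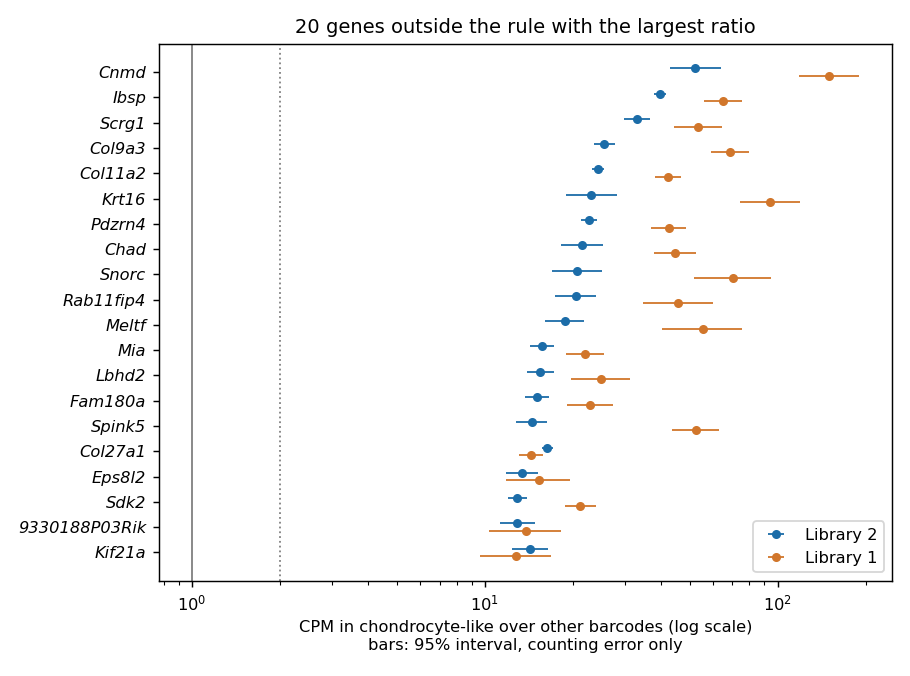
CPM in chondrocyte-like barcodes over CPM in the other passing barcodes (log scale) for the 20 genes outside the rule with the largest ratio, with library 2 above library 1 in each row and bars for the 95% interval on counting error. The solid line marks a ratio of 1 and the dotted line 2-fold. Cnmd leads at 52.3-fold in library 2 and 149.5-fold in library 1, and every point lies to the right of the dotted line.

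Among other cartilage matrix genes, 12 of 19 compared were higher and 1 was lower in members. The median log2 ratio of the list was 2.57 in library 2 and 3.85 in library 1, against -0.22 in each over all genes compared. Fmod, the collagen-binding proteoglycan fibromodulin, had 1283 CPM in members of library 2 and 1738 CPM in members of library 1, against 215.6 and 104.5 CPM in other barcodes. Comp, the pentameric cartilage oligomeric matrix protein, had 956.6 and 993.4 CPM in members, against 175.7 and 133.0 CPM in other barcodes. Ogn, the proteoglycan osteoglycin, was the lower gene, at 108.8 and 103.6 CPM in members, against 449.5 and 305.6 CPM in other barcodes. The widely expressed proteoglycans lay closer together: Dcn had 5750 and 11170 CPM in members, against 4789 and 4974 CPM in other barcodes, and Lum 3183 and 3845 CPM, against 2911 and 2398 CPM. Some other genes of the list were scarce in members, though Prg4 and Ucma, given below, were not scarce in library 1. Matn3 stood at 31.31 and 25.28 CPM in members, Epyc at 2.68 and 0 CPM, and Cilp at 0.894 and 1.26 CPM. Most UMIs of Chil1, a secreted chitinase-like protein, came from 1 barcode in each library (75.9% and 79.8%).

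The factors that run the cartilage programme were present beside the matrix. Sox9 had 898.7 CPM in members of library 2 and 898.6 CPM in members of library 1, against 121.7 and 71.55 CPM in other barcodes, so its ratio was 7.38-fold and 12.6-fold. It was found in 84.3% and 83.3% of thinned members, against 21.7% and 12% of other barcodes. Sox5 and Sox6, which act with Sox9, were 3.75-fold and 5.79-fold higher in library 2 and 4.54-fold and 9.39-fold higher in library 1. Trps1, a repressor with a role in the growth plate, was 2.82-fold and 3.14-fold higher and Nfatc2 6.99-fold and 10.4-fold higher. In all, 5 of 13 factors compared were higher and none was lower by that measure. Runx2, the factor of enlarged chondrocytes and osteoblasts, stood at 48.90 CPM in members of library 2 and 92.26 CPM in members of library 1, against 26.89 and 28.26 CPM in other barcodes, and was found in 8.46% and 9.52% of thinned members. Genes of positional identity did not reach the level needed for a comparison, with 0 of 35 compared. That list holds Hox and T-box genes and Hand2, Meox1, Pax1, Pax9 and Foxf1.

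Receptors known from chondrocytes were higher in part. Of 20 compared, 6 were higher and 1 was lower. Fgfr3, a receptor that restrains chondrocyte growth, had 90.35 and 56.87 CPM in members, against 8.33 and 10.38 CPM in other barcodes. Trpv4, a calcium channel that opens under mechanical load, had 183.1 and 230.0 CPM in members, against 19.81 and 16.30 CPM in other barcodes. The stretch-gated channels Piezo1 and Piezo2 were 3.15-fold and 7.50-fold higher in library 2 and 3.41-fold and 3.16-fold higher in library 1, and Pth1r, the receptor for parathyroid hormone-related protein, 6.28-fold and 4.98-fold. Itga10, a collagen-binding integrin chain of chondrocytes, was 5.74-fold and 5.72-fold higher, while its partner chain Itgb1 was lower, at 283.6 and 312.2 CPM in members, against 656.4 and 637.9 CPM in other barcodes. Without barcodes over 20000 UMIs, Fgfr3, Trpv4 and Pth1r kept their call, and Piezo1, Piezo2, Itga10 and Itgb1 did not.

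Signals went the other way more often, with 2 of 16 compared higher and 5 lower. Frzb, a secreted inhibitor of Wnt signals found in joint cartilage, had 1139 and 657.2 CPM in members, against 212.3 and 195.3 CPM in other barcodes. Gli3, a factor of the hedgehog pathway, was 2.40-fold and 2.46-fold higher. Lower were the growth factors Bmp4 and Igf1, the Wnt inhibitor Sfrp1, the IGF-binding protein Igfbp5 and the matricellular gene Ccn3, with members at 0.139 to 0.255 of the level of other barcodes in library 2 and 0.0596 to 0.172 in library 1. The hedgehog ligand gene Ihh gave 2.68 CPM in members of library 2 and 0 in members of library 1.

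Genes for making the sulfated sugar chains of aggrecan were higher for 6 of 16 compared and lower for none. Xylt1, which attaches the first sugar of the chain, had 909.7 and 977.0 CPM in members, against 94.82 and 73.67 CPM in other barcodes. Papss2, which makes the sulfate donor, was 10.0-fold and 8.20-fold higher and Slc26a2, the sulfate transporter, 3.69-fold and 3.48-fold. Chst11, Ugdh and Csgalnact1 were 2.17-fold to 4.95-fold higher in library 2 and 2.51-fold to 7.11-fold in library 1. Among genes for folding, crosslinking and exporting collagen, 8 of 31 were higher and 3 lower. Pcolce2, an enhancer of collagen processing, had 1483 and 475.2 CPM in members, against 193.2 and 198.7 CPM in other barcodes. Plod2, a collagen lysyl hydroxylase, was 3.28-fold and 3.84-fold higher, and P3h1, P3h2, P3h4, P4ha2, Sec24d and Creb3l2 were 2.04-fold to 2.83-fold higher in library 2, a call that each of these 6 lost without barcodes over 20000 UMIs. The crosslinking enzymes Loxl1 and Loxl2 and the procollagen protease Adamts2 were lower in members, at 0.236 to 0.338 of the level of other barcodes in library 2. Hif1a, the oxygen-sensing factor that chondrocytes need in tissue without vessels, was 2.54-fold and 2.71-fold higher, and its relative Epas1 was lower, at 0.452 and 0.298. The shares in the lists on proteases (1 higher and 1 lower of 11), hypoxia and glycolysis (1 and 1 of 10) and early response and heat shock genes (0 and 0 of 17) were near those over all genes or below them.

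Genes of enlarged chondrocytes and of mineralisation were called higher for 9 of 13 compared and lower for 1. Spp1, the mineral-binding protein osteopontin, took 17000 CPM in members of library 2 and 17950 CPM in members of library 1, against 4645 and 3812 CPM in other barcodes. Sparc, which encodes osteonectin, took 27090 and 35970 CPM in members, against 4547 and 4774 CPM in other barcodes. Ank, Enpp1 and Slc20a1, which set pyrophosphate and phosphate outside the cell, were 2.84-fold, 3.44-fold and 2.59-fold higher in library 2 and 4.69-fold, 7.79-fold and 3.44-fold higher in library 1. Tnfrsf11b, the decoy receptor osteoprotegerin, was 2.36-fold and 3.86-fold higher. Sost, the secreted Wnt inhibitor sclerostin, was lower, with 44.13 and 11.37 CPM in members, against 224.3 and 78.27 CPM in other barcodes. Without barcodes over 20000 UMIs, Spp1 (1.97), Tnfrsf11b (1.95), Slc20a1 (1.78) and Sost (0.727) fell short of the 2-fold limit in the library nearer to 1, and Ank, Enpp1 and Sparc did not. Mmp13, the collagenase of the growth plate, counted among the higher genes, but 80.2% of its UMIs in library 2 and 96.5% in library 1 came from a single barcode. Mgp, matrix Gla protein and an inhibitor of mineral, lay at 9376 and 17150 CPM in members, against 14580 and 16590 CPM in other barcodes.

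**Figure D3:**
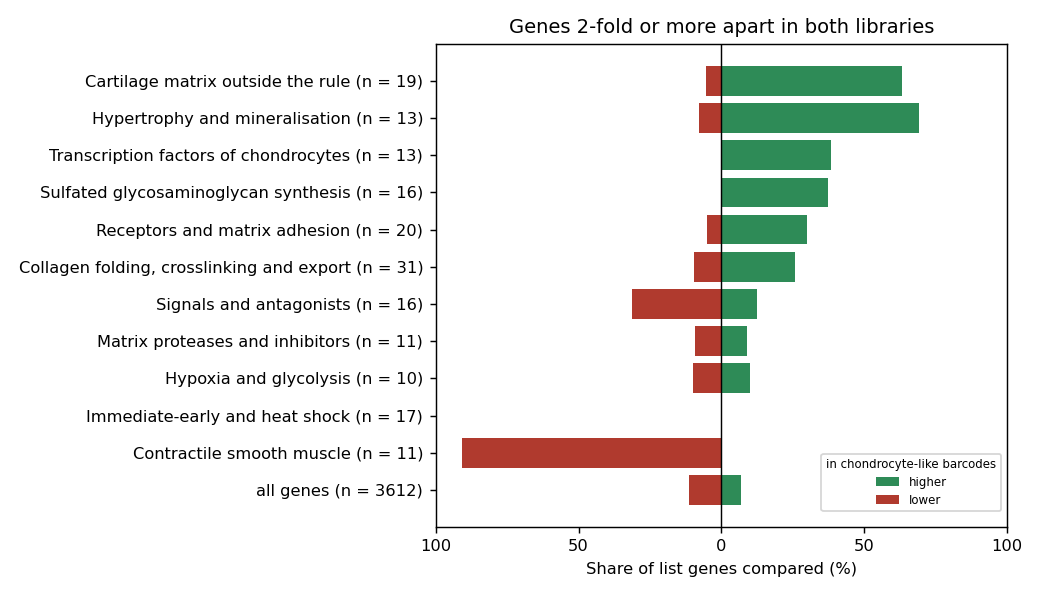
Share of the genes compared in 10 lists of function and in the contractile smooth muscle markers that were 2-fold or more higher (right) or lower (left) in chondrocyte-like than in other barcodes in both libraries, in percent, with the number compared and the same shares over all 3612 genes at the bottom. Of the lists drawn, mineralisation (9 of 13 higher) and cartilage matrix genes (12 of 19 higher) reach farthest to the right, and contractile smooth muscle genes (10 of 11 lower) farthest to the left.

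Marker lists of other cell types stood on both sides. Fibroblast markers summed to 25620 CPM in members of library 2 and 27940 CPM in members of library 1, against 11350 and 10910 CPM in other barcodes, with 2 of 9 higher and 4 lower. The higher pair is Col1a1 and Col1a2, the chains of type I collagen, at 3.54-fold and 3.34-fold in library 2. Modulated smooth muscle markers summed to 18450 and 25730 CPM in members, against 14560 and 14200 CPM in other barcodes, with 2 of 9 higher and 2 lower, and one of the higher genes, Fn1, which encodes fibronectin, lost its call without barcodes over 20000 UMIs (1.69). Osteoblast markers summed to 12440 and 11160 CPM, against 3421 and 2664 CPM, and Col1a1, which that list shares, gave 11930 and 11020 CPM of the members' sum and was the 1 gene of it compared. Red cell markers summed to 155.7 and 1.26 CPM in members, against 21.8 and 100.5 CPM in other barcodes. The 8 endothelial markers summed to 32.2 CPM in members of library 2 and 82.2 CPM in members of library 1, against 470.1 and 1600 CPM in other barcodes, and the 8 macrophage markers to 154.5 and 48.0 CPM, against 1797 and 2829 CPM. Per member the endothelial sum ran from 0 to 15.7 per 10000 UMIs in library 2 and to 16.7 in library 1, and the macrophage sum from 0 to 75.6 and to 3.13. C1qa and Pecam1 of these lists were limited by the rule. Kdr of the endothelial list was at 0 in members of library 2 and Adgre1 of the macrophage list at 0 in members of library 1, while Vwf had 8.35 and 16.4 CPM and Cd68 16.4 and 12.6 CPM. T cell markers summed to 5.96 and 0 CPM, B cell markers to 0.894 and 0 CPM and mesothelial markers to 0 in both libraries. Contractile smooth muscle markers summed to 2965 and 1246 CPM in members, against 20560 and 13100 CPM in other barcodes and 18000 and 13470 CPM in barcodes of 10 to 100 UMIs, which hold mostly free RNA. Per member that sum ran from 0.595 to 390.3 per 10000 UMIs in library 2 and from 0 to 171.6 in library 1. Of these markers, 10 of 11 compared were lower in members. Acta2, smooth muscle actin, was nonetheless found in 77.7% of thinned members of library 2 and 52.4% of library 1, which is near the 80.7% and 64.5% of other barcodes. In library 2 the share differed with depth: Acta2 was found in 24.0% of the 50 members over 20000 UMIs and in 87.7% of the 269 shallower ones, all thinned to 3000 UMIs, and Tagln in 22.0% and 74.7%. The same deep and shallow members had 28890 and 17810 CPM of Col2a1, 24330 and 10750 CPM of Spp1, 2380 and 711.3 CPM of Ibsp and 266.7 and 92.9 CPM of Alpl. What part free RNA or a second cell in the droplet has in these differences was not tested, and no doublet caller was run.

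Between the libraries, 10 of 22 cartilage matrix genes compared were lower in members of library 2 and 2 were higher. On summed UMIs, 122 of 3515 genes compared (3.47%) were higher in library 2 and 197 (5.6%) were lower, taking a gene as called when its ratio and the near bound of its interval were past 1.5-fold. With each barcode thinned to 3000 UMIs, so that deep barcodes weigh no more than others, the calls were 48 (1.29%) and 87 (2.35%) of 3708. The ratios describe these libraries, not a treatment. Sox9 was level, with a ratio of 1.00 (0.92 to 1.09) on summed UMIs.

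Phex, an endopeptidase of mineralising bone and tooth cells, had 108.8 CPM in members of library 2 and 1.26 CPM, from 1 UMI, in members of library 1, a ratio of 86.1 (15.4 to 3411). Col10a1, the collagen of enlarged chondrocytes whose upstream window is printed above, had 205.4 CPM in library 2 and 18.96 CPM in library 1, a ratio of 10.8 (6.52 to 19.5). It was found in 12.9% of thinned members of library 2 and 2.38% of library 1, and 32.1% of its UMIs in library 2 came from 1 barcode. Without barcodes over 20000 UMIs the ratio was 2.78 and not called, whereas Phex, at 15.6, was. C1qtnf3, a secreted C1q family protein of cartilage, had 114.8 CPM in library 2 and no UMI in library 1, which makes it at least 30.3-fold higher against a limit of 3 counts. Sfrp4, a secreted Wnt inhibitor, had 54.57 and 6.32 CPM, Col25a1, a transmembrane collagen, 156.2 and 18.96 CPM, and Ramp1, part of the receptor for the peptide CGRP, 203.7 and 25.28 CPM. Cd74 (53.37 and 5.06 CPM), Pln (55.46 and 0 CPM) and Hbb-bs (83.49 and 1.26 CPM) mark other cell types, namely antigen-presenting, contractile and red blood cells. For Bglap, osteocalcin, 99.0% of the UMIs in library 2 came from 1 barcode. Of 18 mineralisation genes compared, 7 were higher and 2 lower in library 2, and on thinned barcodes 3 of 16 were higher and 1 lower. Contractile smooth muscle markers moved with these: 6 of 9 compared were higher in library 2 and none lower, and they summed to 2965 CPM in library 2 and 1246 CPM in library 1. On thinned barcodes 2 of 11 were higher and none lower. Acta2 had 1084 and 388.0 CPM, a ratio of 2.79, and Tagln 712.7 and 356.4 CPM. Their ratios were 1.15 and 0.796 once barcodes over 20000 UMIs were left out, and neither was called. The part of contractile RNA in the library difference was not tested.

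Of the cartilage matrix genes lower in library 2, Dcn, the proteoglycan decorin, had 5750 CPM in members of library 2 and 11170 CPM in members of library 1, a ratio of 0.515 (0.502 to 0.528). Prg4, the lubricant protein of joint surfaces, had 166.7 and 556.1 CPM, and Chad 96.61 and 267.9 CPM. Dcn and Prg4 kept their call without barcodes over 20000 UMIs, and Chad, at 0.561, did not. Col11a2 and Col27a1 were the 2 higher genes, at 1.80 and 1.92. Thinned, 9 of 23 genes of the list were lower and none higher. Of 17 early response and heat shock genes, 5 were lower on summed UMIs, with Junb at 0.483 and Ier3 at 0.261, and 1 was lower and 1 higher on thinned barcodes. Neither Junb (0.906) nor Ier3 (0.638) was called without barcodes over 20000 UMIs.

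The 10 genes with the lowest ratios on summed UMIs, and those lowest on thinned barcodes, included others. Ckap2, Mki67, Aspm, Top2a, Nek3, Cenpf, Prc1 and Racgap1, genes of cell division or close to it, had 3.88 to 13.4 CPM in members of library 2 and 53.1 to 204.7 CPM in members of library 1. A single barcode gave 54.2% to 90.6% of their UMIs in library 1, and they were found in 2.38% to 7.14% of its thinned members. Without barcodes over 20000 UMIs, Mki67 (2.98), Cenpf (1.75), Top2a (1.23), Ckap2 (1.07) and Prc1 (1.03) turned round, so their direction rests on the deep barcodes. The side of library 1 was then 26 members, 19 of them the like barcodes. The next genes were found in more members. Cxcl10, a chemokine induced by interferon, was found in 8 of 319 thinned members of library 2 (2.51%) and 21 of 42 of library 1, and Ccl5, a chemokine of activated lymphocytes, in 1.88% and 30.9%. Cytl1, a secreted protein of cartilage, had 571.6 CPM in members of library 2 and 4683 CPM in members of library 1, a ratio of 0.122 (0.116 to 0.129), and Ucma, a secreted Gla protein of cartilage, was found in 5.02% and 54.8%. In the other passing barcodes Cytl1 had a ratio of 0.245 between the libraries, and it was found in 77.0% of thinned endothelial barcodes of library 2 and 85.0% of library 1. Barcodes of 10 to 100 UMIs, which hold mostly free RNA, had 351.7 CPM of it in library 2 and 1016 CPM in library 1.

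Most of the chemokine counts of library 1 lay in the 19 like barcodes. Cxcl10 was found in 2.51% of the 319 members of library 2 (1.09 to 4.88), in all 19 of that group (82.4 to 100) and in 8.70% of the other 23 members of library 1 (1.07 to 28.0). The interval for the group counts its 19 barcodes as separate cells, which was not tested. Ccl5 was found in 1.88% of library 2, 68.4% of the group and none of the other 23, which allows up to 13.0%. The lymphocyte protease gene Gzma, the interferon factor gene Irf8 and the muscle gene Tcap behaved alike, with 0, 0.627% and 5.64% in library 2, 42.1%, 36.8% and 63.2% in the group and 0 in the other 23. Ctla2a was found in 4.39% of library 2, 94.7% of the group and 4.35% of the other 23. Among the endothelial markers, Egfl7, Cldn5 and Cdh5 were found in 36.8%, 26.3% and 10.5% of the group. In library 2 they were found in 2.82%, 2.51% and 2.19%, and in the other 23 in 4.35%, 0 and 0. What part free RNA or a second cell in the droplet has in the group was not tested. The group also had the most Mgp, at 47140 CPM, against 20720 CPM in the other 23 and 11440 CPM in library 2, and the least Spp1, at 3298 CPM, against 15810 and 12880 CPM. Comp was found in 89.5% of the group, 39.1% of the other 23 and 34.5% of library 2, and Acta2 in all of the group, 13.0% of the other 23 and 77.7% of library 2. Without the group, Cxcl10 had a thinned ratio of 0.240 (0.0619 to 1.36) and was no longer called, although on summed UMIs it stayed lower at 0.0976 (0.0552 to 0.167), and Ccl5, Irf8, Gzma and Tcap were not called either. Cytl1 (0.0871, 0.0761 to 0.0997) and Ucma (0.124, 0.0563 to 0.290) stayed lower in library 2 on the thinned scale, and Col9a2 stayed higher at 4.13 (2.23 to 8.66). Contractile genes then differed more, with Tagln at 48.6 (13.4 to 401.7) and Acta2 at 34.2 (13.3 to 125.8) higher in library 2. Depth also differed: 16 of the 23 members left in library 1 held over 20000 UMIs, against 50 of 319 in library 2. In library 2, Acta2 was found in 24.0% of thinned members over 20000 UMIs and in 87.7% of the shallower ones. Among members over 20000 UMIs alone, thinned Acta2 had 320 CPM in library 2 and 62.5 CPM, from 3 UMIs, in library 1. The part of depth in these contractile ratios was not tested. Without the group, the counts of calls on thinned barcodes were 48 higher and 92 lower of 3888.

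**Figure D4:**
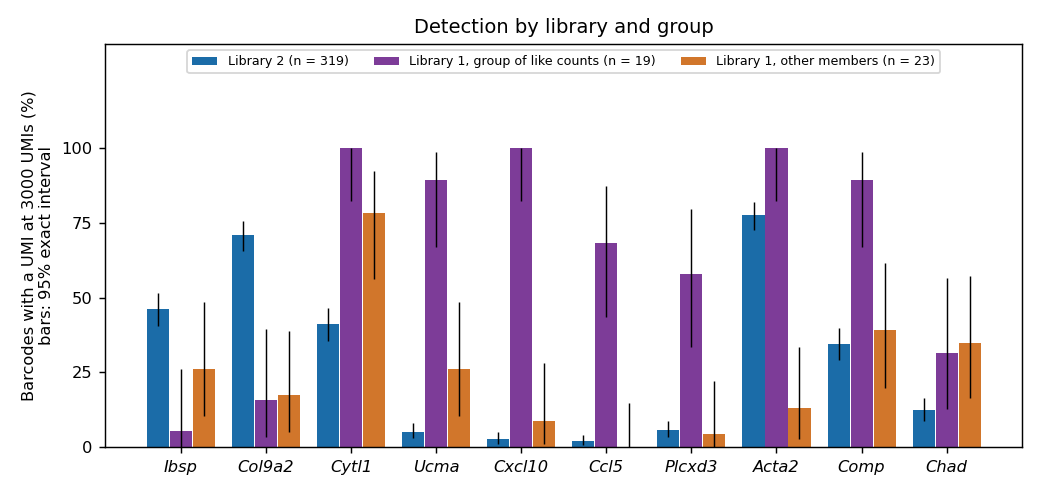
Percent of barcodes with at least 1 UMI of each gene after thinning to 3000 UMIs, in the 319 members of library 2, the 19 like barcodes of library 1 and the other 23 members of library 1, with exact 95% intervals. These intervals count each barcode as a separate cell. Cxcl10, Ccl5 and Plcxd3 are frequent in the group of 19 alone among these sets, while Cytl1 is frequent in both sets of library 1 and Col9a2 in library 2.

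Ibsp was not used to choose members and varied strongly among them. After thinning it was found in 147 of 319 members of library 2, a share of 46.1% (40.5 to 51.7), and in 7 of 42 members of library 1, a share of 16.7% (6.97 to 31.4). Unthinned, the counts were 167 (52.4%) and 10 (23.8%). Without the 19 like barcodes the thinned share of library 1 was 26.1%, or 6 of 23. Macrophage barcodes, which should lack the gene, had a share of 3.89% in library 2 and of 0 in library 1, which allows up to 0.867%. Endothelial barcodes had 1.41% and 0, which allows up to 0.289%, and all other passing barcodes 3.91% and 0.398%. Before thinning the macrophage barcodes had median depths of 4906 and 7376 UMIs. In library 2 the members with 1 Ibsp UMI numbered 53, whereas 51 members with 5 or more held 80.9% of the Ibsp UMIs, with a highest count of 66. In library 1 a single barcode gave 45.6% of the Ibsp UMIs of all members before thinning.

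Splitting members by Ibsp detection set few genes apart. In library 2 alone, with members at 3000 UMIs each, 16 of 3601 genes compared (0.444%) were higher and 11 (0.305%) lower in Ibsp-detected members past 1.5-fold with their intervals. Spp1 had 16430 CPM in the 147 detected members and 9841 CPM in the 172 others, a ratio of 1.67 (1.61 to 1.73). Omd, osteomodulin, a proteoglycan of mineralised matrix, had 90.70 and 32.95 CPM, a ratio of 2.75 (1.53 to 5.18), and 28.1% of its UMIs came from 1 barcode. Of the 16 higher genes, 8 are known from other cell types: the hemoglobin genes Hba-a1, Hba-a2, Hbb-bs and Hbb-bt and the myeloid genes Ctss, Fcer1g, Tyrobp and Wfdc17 were 3.77-fold to 7.92-fold higher. The 4 red cell markers summed to 768.7 CPM in detected members and 133.7 CPM in the others, and the 8 macrophage markers to 433.1 and 234.5 CPM, and their part in the split was not tested. Per member of library 2 before thinning, the red cell sum had a median of 0 and reached 557.7 per 10000 UMIs in 1 barcode, so it speaks for few members. Cytl1 was lower, at 317.5 and 664.7 CPM, a ratio of 0.478 (0.390 to 0.583), as were Stmn1, Cks2 and H2afz, genes linked to division, and cycling markers summed to 20.4 and 174.4 CPM.

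Taking both libraries, 51 of 2961 genes (1.72%) were 1.5-fold or more higher and 42 (1.42%) lower in Ibsp-detected members of each. The detected side of library 1 is 7 barcodes with 21000 UMIs in all, and 37 of the 51 higher and 40 of the 42 lower genes rest on fewer than 5 UMIs there. Only Saa3 and Omd had intervals past 1.5-fold in both libraries, and no lower gene did. Of the 2 genes named for this comparison, neither kept its 1.5-fold call at a Col2a1 minimum of 100 per 10000. With all 5 partner genes, with no filter on CPM and unthinned, 1 of the 2 lost it each time. Saa3, an acute-phase protein, had 63.49 and 3.88 CPM in library 2 and 952.4 and 9.52 CPM in library 1 in detected and other members. Col2a1, Acan and the master factor Sox9 were not called for the split in library 2. In detected and other members Col2a1 had 21810 and 17620 CPM and Acan 2283 and 2446 CPM. Sox9 was lower in detected members, at 716.6 and 992.2 CPM.

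A finer split by Ibsp level was made in library 2, after the values were seen. Ibsp was at 0 in 152 members, under 5 per 10000 UMIs in 65, from 5 to under 20 in 61 and at 20 or more in 41. Median depth was 4320, 5671, 4373 and 4638 UMIs in these classes. Set against all other members of the library, the 41 highest had 25 of 3656 genes (0.684%) higher and 19 (0.52%) lower past 1.5-fold with their intervals. Alpl, the phosphatase that frees phosphate for mineral, had 390.2 CPM in the highest class and 80.34 CPM in the rest, a ratio of 4.86 (3.28 to 7.14), and the classes below stood at 78.95, 107.7 and 54.64 CPM from low to high. Omd had 146.3 CPM in the highest class and 46.76 CPM in the rest, Lox, an enzyme that crosslinks collagen and elastin, 634.1 and 291.4 CPM, Cdkn1c, a cell cycle inhibitor active in enlarging chondrocytes, 252.0 and 71.94 CPM, and Chit1, a chitinase, 81.30 and 4.80 CPM. Cst3, the protease inhibitor cystatin C, had 37660 and 24150 CPM. For Bglap and Bglap2, both osteocalcin genes, 1 barcode gave 99.0% and 99.3% of the UMIs.

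Among the 19 genes lower in the highest Ibsp class, 1 of 11 contractile smooth muscle markers and 2 of 21 cartilage matrix genes were counted. Eln, elastin, had 235.8 CPM in the 41 members and 709.8 CPM in the rest, a ratio of 0.332 (0.220 to 0.482). Tagln, a smooth muscle actin-binding protein and the contractile marker called, had 804.9 and 1498 CPM, and the contractile markers summed to 3683 CPM in this class and to 5256 to 6667 CPM in the 3 classes below. Prg4, the lubricant protein of the joint surface, had 24.39 and 177.5 CPM, Cytl1 154.5 and 556.4 CPM and Mustn1, a small nuclear protein of muscle and bone, 48.78 and 217.0 CPM. Hbb-bs had 92.1, 210.3, 765.0 and 0 CPM in the classes from low to high. Leaving out barcodes over 20000 UMIs ended the call of Alpl (1.76), Cst3 (1.44), Lox (1.44), Omd (1.32) and Tagln (0.617), and keeping 1 barcode per group of like counts ended that of Cdkn1c (2.05), Chit1 (8.21) and Mustn1 (0.324). Eln, Prg4, Cytl1 and Hbb-bs kept their call both ways. Hapln1 stood at 1390 CPM in the highest class and 883.7 CPM in the rest (ratio 1.57, 1.32 to 1.86), Col2a1 at 27460 and 18380 CPM (1.49, 1.44 to 1.55), Spp1 at 18260 and 12080 CPM (1.51, 1.44 to 1.58), Col10a1 at 284.6 and 161.9 CPM (1.76, 1.18 to 2.57) and Sox9 at 731.7 and 884.9 CPM (0.83, 0.66 to 1.03), and none of these was called.

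**Figure D5:**
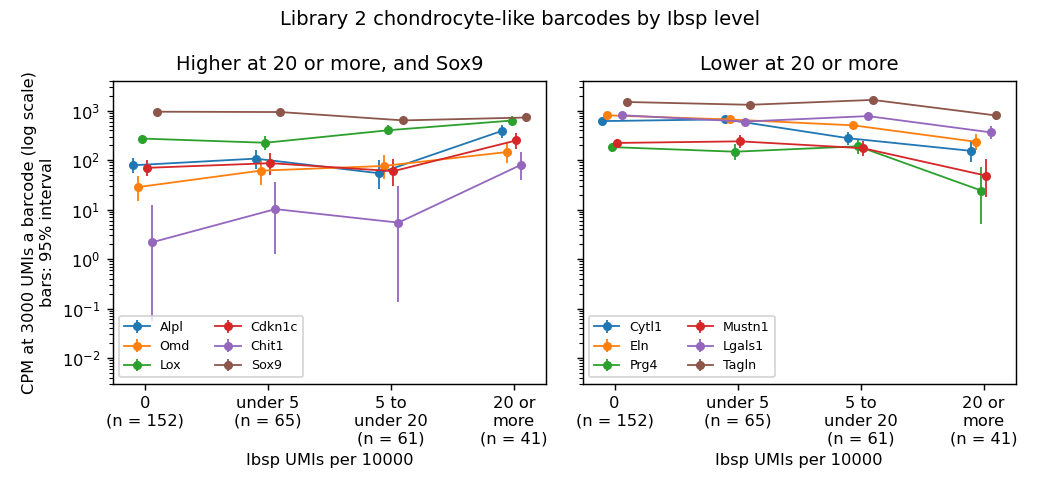
CPM of summed members of library 2 at 3000 UMIs a barcode (log scale) in 4 classes of Ibsp level from low to high, with 95% intervals on counting error; genes called higher in the top class and Sox9 are on the left and genes called lower on the right. From low to high, Alpl stands at 78.95, 107.7, 54.64 and 390.2 CPM and Eln at 809.2, 666.7, 508.2 and 235.8 CPM.

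Members also differed among themselves in a handful of abundant transcripts, most of them for secreted products. Ranked by variance over mean of thinned counts, by the smaller of both libraries, the leading genes were Spp1, Mgp, Malat1, Cst3, Col1a1, Comp, Fth1, Ibsp, Sparc and Cytl1. Spp1 had a variance of 66.5 times its mean in library 2 and 66.7 times in library 1. Its level per barcode ran from 0 through a median of 80.0 to 1523 UMIs per 10000 in library 2, and from 0.866 through 39.1 to 707.1 in library 1. Mgp ran from 1.33 through 64.8 to 1265 per 10000 in library 2 and from 2.75 through 368.4 to 665.1 in library 1. Comp was at 0 in the median member of library 2 and reached 162.3 per 10000, and Col1a1, the main collagen of bone and of fibrous tissue, ran from 0.26 through 83.0 to 531.7. Sparc was present in every member of both libraries, with 44.1 per 10000 as the lowest value.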

How the data were processed

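Per the file headers, Cell Ranger 6.0.1 made the deposited matrix, whose values are unnormalized UMI counts. Build mm10 and the tools Seurat, Cell Ranger and bcl2fastq come from the submitters' processing notes; no further step is stated. It has 32285 genes, 2828620 barcodes and 102083793 entries, and 32158 gene identifiers (99.61%) matched GENCODE vM21. Members and gene lists were chosen with earlier results of these data known. UMIs were summed over barcodes and expressed as CPM, in Python 3.11.15 with numpy 2.4.6, scipy 1.17.1 and pandas 2.3.3. Where thinned, each barcode was drawn down to 3000 UMIs. Ratios carry exact conditional Poisson intervals and shares Clopper-Pearson intervals, at 95%, over counting error only, and 3 counts stood in as the limit where none were seen. Calls needed 50 CPM, and 2-fold against other barcodes or 1.5-fold between groups of members. Macrophage, endothelial and smooth muscle barcodes were taken by marker levels. No doublet caller was run. Genes were named by fixed ranks (the 20 with the largest ratio to other barcodes, 10 each way between libraries, 12 each way for the Ibsp split and 10 by variance) and from fixed lists. The groups of like counts, the limit of 20000 UMIs, the calls in library 2 alone and the graded Ibsp classes, with the genes named for them and some list genes named between libraries, were chosen after the values were seen. The scripts were tested on simulated data.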

Additional observations from a re-analysis of the deposited data

How the results depend on the processing

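Of 129 alternative values of shares and counts, 83 stayed near the main value and 46 moved, with the cause not tested. The share of members in library 2 was 6.02% at Col2a1 of 25, 3.55% at 100, 3.42% at 5000 UMIs, 2.59% with all 5 partner genes, 3.95% with no C1qa or Pecam1 UMI, 4.12% without barcodes over 20000 UMIs and 2.80% with 1 barcode per group of like counts. In library 1 it was 0.443% at 100, 0.190% with all 5 genes, 0.412% with no C1qa or Pecam1 UMI and likewise without barcodes over 20000 UMIs, and 0.365% both without the 19 like barcodes and with 1 per group. The Ibsp share of library 2 was 29.5% at 2 or more UMIs and 52.4% unthinned. Against other barcodes, 150 genes were higher and 193 lower without barcodes over 20000 UMIs, 793 and 1595 with no filter on CPM, 754 lower at 20 CPM and 250 lower on means over barcodes. Between libraries, 69 were higher and 127 lower without barcodes over 20000 UMIs, 229 and 374 with no filter, 511 and 409 on means over barcodes and 48 and 87 thinned, with 298 lower at 20 CPM and 323 lower with all 5 genes. For the Ibsp split in both libraries, genes higher and lower were 109 and 161 at 5000 UMIs, 107 and 19 with all 5 genes, 77 and 8 without barcodes over 20000 UMIs, 100 and 95 with 1 per group, 102 and 19 at 2 or more UMIs, and 33 and 24 unthinned, and genes higher were 95 at Col2a1 of 100, 247 at 20 CPM and 25 with no filter. Few of those genes recurred: 14 of the 109 higher at 5000 UMIs and 17 of the 107 higher with all 5 genes were among the 51. Among genes named, Mmp13 turned to 0.588 at Col2a1 of 100, and with all 5 partner genes Adamts2 turned to 1.08 and Chil1 to 0.982 against other barcodes and Nek3 to 1.39 and Tagln to 0.939 between libraries. Without barcodes over 20000 UMIs, Mki67 turned to 2.98, Cenpf to 1.75, Top2a to 1.23, Ckap2 to 1.07, Prc1 to 1.03 and Tagln to 0.796 between libraries. In that setting 19 of the 26 members of library 1 were the like barcodes. The 10 genes of highest variance over mean shared 9 with each of 3 alternatives. No paired analysis was possible because each library stands alone and carries no replicate number. Library 1 holds 42 members, 7 of them with Ibsp, so intervals there are limited by the number of barcodes, and no spread between animals can be had from 1 library each.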
